A study of Mus musculus with 8 samples.

Results

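The genes described here are 10 transcripts of killer lymphocytes and of the receptors that restrain them, taken by symbol from the 46078 gene identifiers in the count tables. They fall into 5 cytotoxic effectors (*Gzma*, *Gzmb*, *Gzmk*, *Prf1* and *Nkg7*) and 5 inhibitory receptors, or checkpoints (*Pdcd1*, *Lag3*, *Tigit*, *Ctla4* and *Havcr2*). They were listed by name and no cutoff on a measured value was applied, although earlier results of these data were known when the list was made. Each of the 10 was found once and passed the filter on low counts. They were compared in infarcts of 8 male wild-type C57BL/6J mice aged 18 months, all collected 7 weeks after DH stroke, a model that joins occlusion of the distal middle cerebral artery with a period of hypoxia. The 4 vehicle animals were injected subcutaneously with PBS and the 4 treated animals with 4 g/kg HPβCD (2-hydroxypropyl-β-cyclodextrin), a cyclic sugar that binds cholesterol. The first of the injections followed 1 week after stroke and both groups received 3 of them per week over 6 weeks. Infarcts were identified visually and dissected by hand, which means that neither the amount of neighboring brain nor the mix of cells was fixed.

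Cytotoxic T cells and natural killer cells store perforin and granzymes in lytic granules and release them onto a target cell, where perforin opens the membrane and granzymes enter and cut proteins. The same lymphocytes carry inhibitory receptors, which bind ligands on neighboring cells and damp activation. These receptors appear on recently activated cells, remain high on T cells that meet antigen for a long time, and several are constitutive on regulatory T cells. T cells are known to persist in the brain after stroke, and the question here was whether their killing and restraint transcripts differed between HPβCD and vehicle infarcts.

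Promoter windows were available in the RefSeq table (GRCm38.p6) for 9 of the 10 genes. Each spans 250 bases before to 50 bases after the annotated start and is written 5′ to 3′ on the strand of the gene. The windows of 3 receptors whose amount relative to T cell receptor complex transcripts was lower after HPβCD are shown first, and those of 3 effectors for which the same ratio was near equal follow. Capitals mark matches on either strand to the letters GGAAA (the core bound by NFAT, a factor activated by T cell receptor signaling), TGTGGT (RUNX), AGGTGT (T-box factors) or TGANTCA (AP-1).
Pdcd1, chr1:94052504-94052803, minus strand: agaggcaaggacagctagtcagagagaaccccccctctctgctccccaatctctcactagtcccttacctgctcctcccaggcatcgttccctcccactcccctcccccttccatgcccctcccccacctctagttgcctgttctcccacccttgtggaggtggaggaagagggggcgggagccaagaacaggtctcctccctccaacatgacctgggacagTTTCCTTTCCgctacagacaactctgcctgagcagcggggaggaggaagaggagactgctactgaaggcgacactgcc
Tigit, chr16:43664135-43664434, minus strand: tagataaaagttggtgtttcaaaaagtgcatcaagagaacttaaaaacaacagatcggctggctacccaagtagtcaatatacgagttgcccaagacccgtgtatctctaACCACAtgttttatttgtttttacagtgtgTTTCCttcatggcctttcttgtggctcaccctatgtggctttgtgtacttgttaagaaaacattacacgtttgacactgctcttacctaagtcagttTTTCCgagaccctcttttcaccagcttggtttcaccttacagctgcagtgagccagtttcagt
Ctla4, chr1:60908775-60909074, plus strand: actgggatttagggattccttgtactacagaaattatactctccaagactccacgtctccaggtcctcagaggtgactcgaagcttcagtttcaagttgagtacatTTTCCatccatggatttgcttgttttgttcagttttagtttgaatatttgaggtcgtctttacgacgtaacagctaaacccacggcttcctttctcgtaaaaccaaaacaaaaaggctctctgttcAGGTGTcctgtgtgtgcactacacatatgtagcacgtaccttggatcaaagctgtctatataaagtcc
Gzmk, chr13:113180916-113181215, minus strand: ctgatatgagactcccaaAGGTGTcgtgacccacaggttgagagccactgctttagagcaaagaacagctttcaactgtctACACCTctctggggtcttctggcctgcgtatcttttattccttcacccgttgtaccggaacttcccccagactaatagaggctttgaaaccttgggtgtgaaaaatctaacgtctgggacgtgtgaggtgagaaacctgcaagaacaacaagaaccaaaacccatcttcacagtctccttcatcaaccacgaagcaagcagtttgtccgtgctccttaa
Prf1, chr10:61297586-61297885, plus strand: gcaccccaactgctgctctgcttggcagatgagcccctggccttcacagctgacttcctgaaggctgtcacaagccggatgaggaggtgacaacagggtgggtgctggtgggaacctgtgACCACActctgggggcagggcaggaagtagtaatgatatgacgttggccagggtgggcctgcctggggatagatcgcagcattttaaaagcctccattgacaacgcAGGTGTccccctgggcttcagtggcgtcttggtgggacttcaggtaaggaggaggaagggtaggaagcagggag
Gzma, chr13:113100932-113101231, minus strand: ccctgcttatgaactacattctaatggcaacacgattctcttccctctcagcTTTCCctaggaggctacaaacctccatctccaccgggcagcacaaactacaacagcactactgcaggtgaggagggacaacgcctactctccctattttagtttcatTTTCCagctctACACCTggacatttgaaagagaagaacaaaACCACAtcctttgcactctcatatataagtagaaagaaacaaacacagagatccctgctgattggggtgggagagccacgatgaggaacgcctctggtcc

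The 3 receptor windows each held GGAAA, with 2 matches in *Pdcd1*, 2 in *Tigit* and 1 in *Ctla4*. The 2 matches in *Pdcd1* lie next to each other, beginning 28 and 23 bases before the start. Among the effectors shown, *Gzma* had 2 matches to GGAAA, and the windows of *Gzmk* and *Prf1* had 0. A match to AGGTGT occurred in *Ctla4* and in each of the 3 effector windows, 2 of them in *Gzmk*. TGTGGT was matched once each in *Tigit*, *Prf1* and *Gzma*, and TGANTCA in none of the 6 windows. Such letters are common: of 32851 promoter windows of the same length, 61.3% held GGAAA, 16.8% TGTGGT, 13.7% AGGTGT and 7.81% TGANTCA. The matches describe sequence and no binding was measured.

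The libraries held 16.6 M to 32.9 M gene counts, and all 12 T lymphocyte markers were tested. Their summed level was 114 to 185 CPM (counts relative to the library total, scaled by TMM factors) in vehicle infarcts. In HPβCD infarcts it was 88.3 to 122 CPM in animals 1, 2 and 4 and 230 CPM in animal 3. HPβCD animal 3 also stood apart from its group in neuron markers (71.7 CPM against 2.57 to 12.5) and in oligodendrocyte markers (1790 CPM against 103 to 879). The oligodendrocyte markers summed to 1417 to 4640 CPM in vehicle infarcts. HPβCD animals 1, 2 and 4 thus lay below every vehicle animal, and HPβCD animal 3 lay within the vehicle range. The median log2 fold change was -2.14 over oligodendrocyte and -5.91 over neuron markers, with 0 called by edgeR in either list. Vehicle animals 3 and 1 had the most neuron transcript, with 5682 and 900 CPM, against 9.30 and 32.0 CPM in the other vehicle animals. Whether these differences between pieces of tissue had a part in the values below was not tested. In bulk tissue, fewer cells of a type and less RNA per cell cannot be told apart.

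No effector differed between the groups beyond the spread between animals, and in all 5 the single highest value of the 8 libraries was that of HPβCD animal 3. *Gzmb* encodes granzyme B, the granzyme best known for triggering apoptosis of target cells (ENSMUSG00000015437, GRCm38 chromosome 14, 56258838 to 56262260, minus strand). Its level was 1.02, 0.861, 0.303 and 0.753 CPM in vehicle animals 1 to 4 and 0.575, 1.90, 6.28 and 0.833 CPM in HPβCD animals 1 to 4. The value of HPβCD animal 3 rests on 117 counts, and the other 7 libraries had 5 to 31. The log2 fold change was 1.69, with an SE of 0.75 (edgeR quasi-likelihood test, adjusted p = 0.185), and it was 0.57 without that animal.

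*Gzmk* encodes granzyme K, which is typical of memory CD8 T cells in inflamed tissue (ENSMUSG00000042385, chromosome 13, 113171608 to 113225908, minus strand). Vehicle animals 1 to 4 had 8.09, 5.11, 4.36 and 3.87 CPM and HPβCD animals 4.65, 3.80, 8.21 and 2.61 CPM. The groups overlapped almost wholly, with a difference of -0.15 (log2, SE 0.38; edgeR adjusted p = 0.834). *Gzma*, the gene of granzyme A on the same chromosome (113093825 to 113100981), was the scarcest by counts, with 4 to 28 per library. Vehicle infarcts averaged 0.691 ± 0.180 CPM and HPβCD infarcts 0.716 ± 0.580 CPM (SD, n = 4 each). Its fold change of 0.05 (log2, SE 0.56; edgeR adjusted p = 0.967) became -0.05 with library totals in place of TMM factors, and the 95% interval ran from -1.21 to 1.31.

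*Prf1*, which encodes perforin (chromosome 10, 61297833 to 61304680), had values of 2.38, 2.61, 1.51 and 2.26 CPM in vehicle animals and of 1.84, 1.04, 2.79 and 1.72 CPM in HPβCD animals. The ranges overlapped, and the fold change was -0.25 (log2, SE 0.33; edgeR adjusted p = 0.674). *Nkg7* encodes a membrane protein of the lytic granule that promotes its release (chromosome 7, 43437073 to 43438249). Its values were 18.2, 13.9, 16.3 and 10.2 CPM in vehicle animals and 13.9, 13.2, 32.6 and 10.7 CPM in HPβCD animals. Apart from HPβCD animal 3, every treated animal lay within the vehicle range, and the log2 fold change was 0.27 with an SE of 0.36 (edgeR adjusted p = 0.674).

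**Figure D1:**
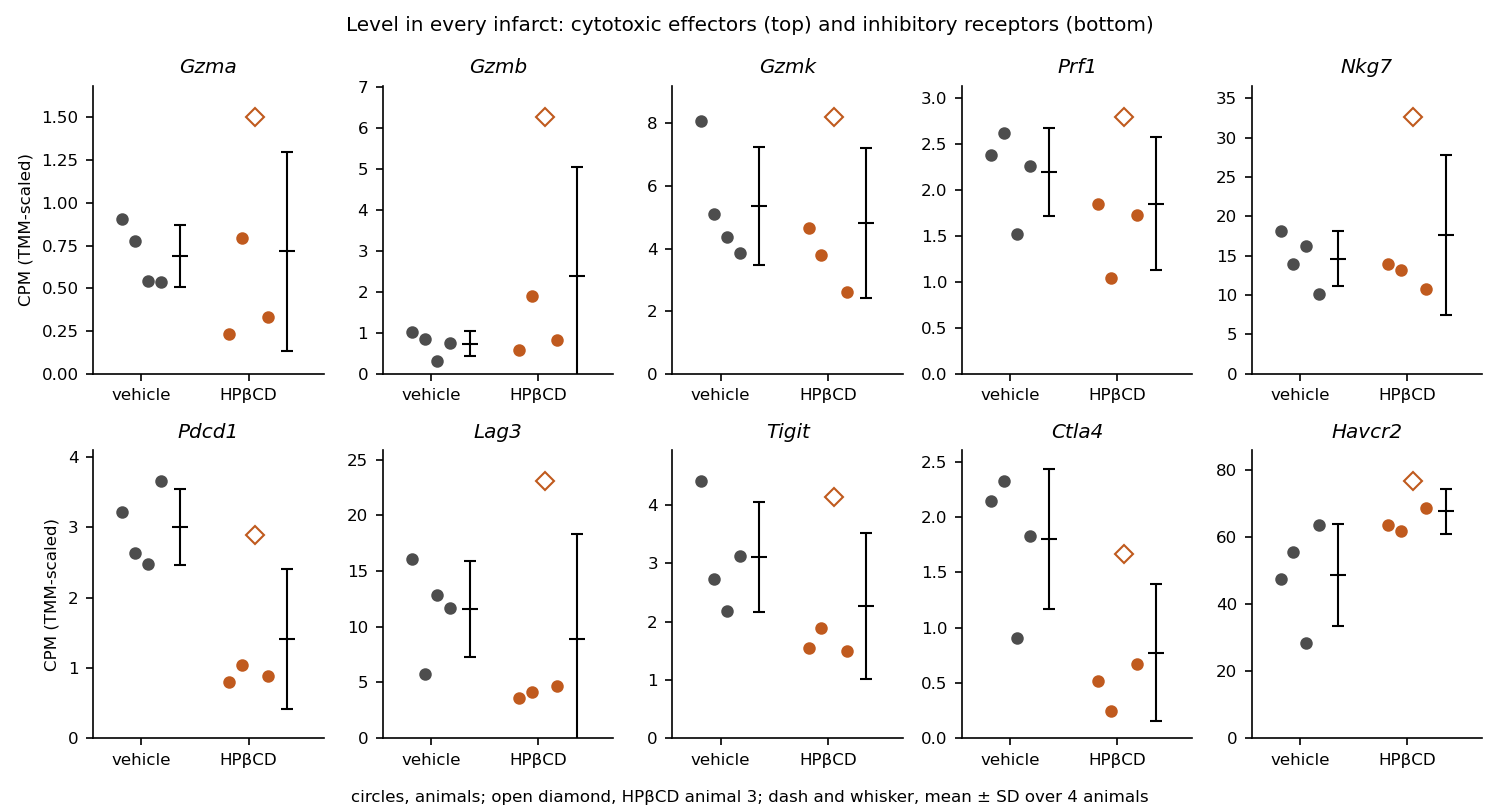
Level of each gene in CPM on a linear axis from 0, one panel per gene, with circles for animals, an open diamond for HPβCD animal 3, and dashes with whiskers for the mean ± SD over 4 animals (cut at 0 for *Gzmb* and *Lag3*). The diamond is the highest of the HPβCD values in all 10 panels, and for *Pdcd1*, *Lag3*, *Tigit* and *Ctla4* the other 3 HPβCD animals lie below the vehicle animals.

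Among the receptors, 3 of 4 HPβCD animals had low values of *Pdcd1*, *Lag3*, *Tigit* and *Ctla4*, and animal 3 did not. *Pdcd1* encodes PD-1, which recruits phosphatases to the T cell receptor complex (ENSMUSG00000026285, chromosome 1, 94038305 to 94052553, minus strand). Its values were 3.22, 2.64, 2.48 and 3.66 CPM in vehicle animals and 0.804, 1.04, 2.90 and 0.888 CPM in HPβCD animals. HPβCD animal 3 fell within the vehicle range and the other 3 were each at less than 1.1 CPM. The log2 fold change was -1.08 (SE 0.43, 95% interval -2.06 to -0.11; edgeR adjusted p = 0.145), and *Pdcd1* was the 1 gene of the 10 with an unadjusted p under 0.05.

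*Ctla4* encodes CTLA-4, which competes with CD28 for CD80 and CD86 and is constitutive on regulatory T cells (ENSMUSG00000026011, chromosome 1, 60887000 to 60915832, plus strand). Its levels were 2.15, 2.32, 0.908 and 1.83 CPM in vehicle animals and 0.517, 0.245, 1.66 and 0.666 CPM in HPβCD animals. The lowest vehicle value, in animal 3, lay above all HPβCD values but that of animal 3. The fold change of -1.21 (log2) had an SE of 0.54 (edgeR adjusted p = 0.185), with 4 to 31 counts per HPβCD library.

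*Tigit* encodes TIGIT, which binds CD155 in competition with the activating receptor CD226 (ENSMUSG00000071552, chromosome 16, 43648867 to 43664146, minus strand). Levels were 4.41, 2.73, 2.18 and 3.12 CPM in vehicle animals against 1.55, 1.90, 4.13 and 1.499 CPM in HPβCD animals. The same animal, HPβCD 3, was again the one that overlapped with vehicle, and the log2 fold change was -0.45 with an SE of 0.39 (edgeR adjusted p = 0.496).

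*Lag3* encodes LAG-3, a relative of CD4 that binds MHC class II (ENSMUSG00000030124, chromosome 6, 124904361 to 124911705, minus strand). Vehicle animals had 16.1, 5.80, 12.9 and 11.7 CPM and HPβCD animals 3.56, 4.17, 23.1 and 4.72 CPM. The highest and the 3 lowest of the 8 values therefore belonged to the same group. The log2 fold change was -0.38 with an SE of 0.65 (edgeR adjusted p = 0.750), and 0.05 without vehicle animals 1 and 3.

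*Havcr2* encodes TIM-3, which besides T cells is known on microglia and macrophages (ENSMUSG00000020399, chromosome 11, 46454935 to 46481255, plus strand). It was the one receptor without low values after HPβCD, with 47.5, 55.6, 28.4 and 63.8 CPM in vehicle animals and 63.7, 61.9, 76.8 and 68.8 CPM in HPβCD animals. The log2 fold change was 0.47 with an SE of 0.23 (edgeR adjusted p = 0.220), and vehicle animal 4 lay within the HPβCD range. The 9 microglia and macrophage markers summed to 1282 to 2106 CPM in vehicle infarcts, with the lowest value in vehicle animal 3, which was also lowest for *Havcr2*. They summed to 1937 to 2129 CPM in HPβCD animals 1, 2 and 4 and to 2917 CPM in animal 3.

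By edgeR, 0 of the 10 genes passed an adjusted p of 0.05, where 1.95% of 14736 tested genes did. At an unadjusted p under 0.05 it was 1 of 10, against 27.8% of all tested genes. DESeq2, the tool of the study, also called 0 of 10 against a background of 17.0% (3 of 10 at an unadjusted p under 0.05, against 18.5% of all genes with a p-value). Of the 16 alternatives run, only limma-voom with sample quality weights, which gives less weight to libraries that vary more, called any of the 10, namely 2 lower. These were *Pdcd1* (log2 fold change -1.54; limma adjusted p = 0.0117) and *Ctla4* (-2.07; limma adjusted p = 0.0128), and it called 11.1% of all genes lower. The groups did not overlap in 0 of 10 genes, against 16.8% of all tested genes. The median log2 fold change was 0.05 over the effectors and -0.45 over the receptors, compared with -0.05 over all tested genes.

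In all 10 genes HPβCD animal 3 was high relative to the other HPβCD animals. It had the highest value of its group in 10 of 10 genes, whereas it did so in 31.6% of all tested genes, and the highest of all 8 libraries in 7 of 10, against 12.3%. The 3 exceptions were *Pdcd1*, *Tigit* and *Ctla4*, which were highest in vehicle animals 4, 1 and 2, respectively. In these 3 genes HPβCD animal 3 lay within the vehicle range. The same library had 75.8 CPM of the 4 CD3 chains summed (*Cd3d*, *Cd3e*, *Cd3g* and *Cd247*), against 28.8 to 36.8 CPM in the other HPβCD animals and 38.8 to 64.8 CPM in vehicle animals.

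The genes were then read without HPβCD animal 3, which leaves 4 vehicle and 3 HPβCD animals. This animal was the highest of its group in all 10 genes, so leaving it out lowers the HPβCD values by construction, and the shares over all genes given here are not a level of no change. In these 7 libraries 4 of 10 genes had groups that did not overlap, all lower after HPβCD, where this held for 13.0% of all tested genes. They were *Pdcd1*, *Lag3*, *Tigit* and *Ctla4*, and the same 4 had an unadjusted p under 0.05 in the lower direction, against 13.8% of all tested genes. *Pdcd1* then averaged 0.911 ± 0.120 CPM (SD, n = 3) with a log2 fold change of -1.71 (95% interval -2.34 to -1.08; edgeR adjusted p = 0.0899). The log2 fold changes of *Ctla4*, *Lag3* and *Tigit* were -1.90, -1.48 and -0.91, with edgeR adjusted p-values of 0.101, 0.0972 and 0.141. In that fit 0 genes in all passed an adjusted p of 0.05 by edgeR, although 3565 had an unadjusted p under 0.05. The median of the effectors was -0.51, and for each of the 5 the 95% interval included 0.

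**Figure D2:**
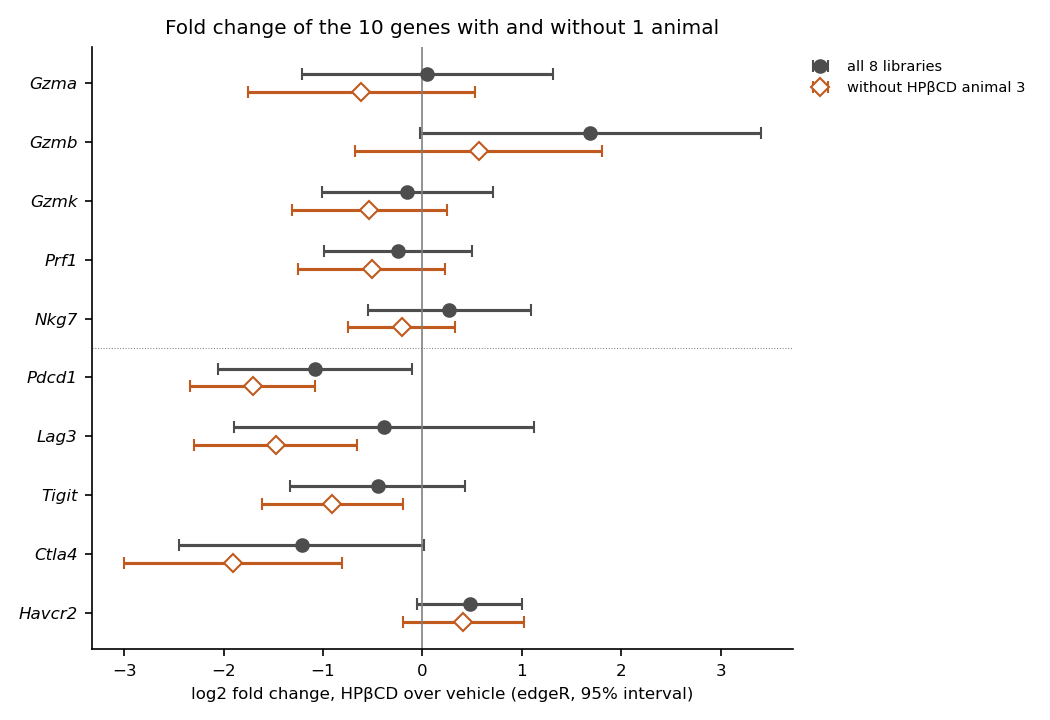
Log2 fold change of each gene, HPβCD over vehicle, with its 95% interval from edgeR, for all 8 libraries (filled circles) and without HPβCD animal 3 (open diamonds); the dotted line parts effectors, above, from receptors. Leaving out the animal moves all 10 estimates to lower values, from -1.08 to -1.71 for *Pdcd1* and from -0.38 to -1.48 for *Lag3*, and from 0.47 to 0.41 for *Havcr2*.

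Because the amount of T cell transcript differed between pieces, each gene was also expressed as a percentage of the summed counts of the 4 CD3 chains in the same library, a ratio in which library scaling cancels. This is a description without a test. On this scale HPβCD animal 3 lay closer to the rest of its group for *Pdcd1*, *Tigit* and *Ctla4*, and in these 3 genes each HPβCD animal had a lower ratio than each vehicle animal. The same was true of 3.31% of all tested genes.

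For *Pdcd1* the ratio was 4.97%, 5.34%, 6.40% and 8.20% in vehicle animals and 2.26%, 2.83%, 3.82% and 3.08% in HPβCD animals. The means were 6.23% ± 1.45 and 2.999% ± 0.650 (SD, n = 4 each), a difference of -1.05 on the log2 scale. Over all tested genes the median of this difference was 0.21. *Ctla4* had 3.32%, 4.70%, 2.34% and 4.10% in vehicle and 1.45%, 0.666%, 2.20% and 2.31% in HPβCD animals, a log2 difference of -1.23. *Tigit* differed less, by -0.30, with 6.81%, 5.51%, 5.62% and 7.00% in vehicle and 4.35%, 5.16%, 5.45% and 5.20% in HPβCD animals.

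The gaps between the groups were narrow in 2 of the 3 genes. The lowest vehicle value of *Ctla4*, 2.34%, rests on 15 counts (exact 95% interval 1.30% to 3.89%) and the highest HPβCD value, 2.31%, on 12 counts (1.19% to 4.07%). For *Tigit* the neighboring values were 5.51% (4.44% to 6.78%) and 5.45% (4.28% to 6.86%). For *Pdcd1* they were 4.97% (3.74% to 6.49%) and 3.82% (2.86% to 5.02%), so the intervals overlapped in each case. Such intervals cover counting error only. When all 12 T lymphocyte markers served as the denominator, the groups stayed apart for *Pdcd1* alone, and the log2 differences were -1.13 for *Pdcd1*, -1.31 for *Ctla4* and -0.38 for *Tigit*. The CD3 chains also did not keep 1 ratio to each other. *Cd3e* made up 36.4% to 42.1% of their counts in vehicle and 45.8% to 50.1% in HPβCD animals, without overlap. With *Cd3e* left out of the denominator, an alternative chosen after the data had been seen, *Pdcd1* was again the 1 gene without overlap, and the log2 differences were -0.84 for *Pdcd1*, -1.02 for *Ctla4* and -0.09 for *Tigit*.

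The effectors did not share this pattern. *Gzmk* was at 10.7% ± 1.60 of CD3 counts in vehicle and 10.8% ± 1.67 in HPβCD infarcts, and *Prf1* at 4.48% ± 0.814 and 4.41% ± 1.42 (SD, n = 4 each). Log2 differences were 0.02 for *Gzmk*, -0.06 for *Prf1*, -0.05 for *Gzma* and 0.39 for *Nkg7*. *Gzmb* was at 5.16%, 8.29% and 2.89% in HPβCD animals 2, 3 and 4, against 0.780% to 1.74% in vehicle animals. HPβCD animal 1, at 1.61%, lay within that range. The log2 difference of *Gzmb* was 1.45, with SDs of 0.55 in vehicle and 1.02 in HPβCD animals. Of the remaining receptors, *Lag3* overlapped between the groups with a difference of -0.54, and *Havcr2*, at 73.2% to 143% in vehicle and 101% to 239% in HPβCD animals, had a difference of 0.77.

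The CD8 chains lay the other way on the same scale. *Cd8a*, the CD8 coreceptor chain found on cytotoxic T cells, was at 25.0% to 34.9% of CD3 counts in vehicle and 43.7% to 55.7% in HPβCD animals. *Cd8b1*, its partner chain, was at 19.5% to 29.8% and 35.0% to 40.8%. In both genes every HPβCD animal, animal 3 included, lay above every vehicle animal, as in 2.70% of all tested genes. This also held with *Cd3e* left out of the denominator. In CPM, *Cd8a* had a log2 fold change of 0.51 and *Cd8b1* of 0.50 (edgeR adjusted p = 0.279 and 0.302), and neither passed the test. Relative to the summed CD8 chains, a denominator chosen after the data had been seen, *Gzmk*, *Pdcd1*, *Tigit* and *Ctla4* were lower in every HPβCD than in every vehicle animal, as were 9.66% of all tested genes. Since these chains were a larger share of CD3 counts after HPβCD, any ratio to them is lowered, and that of *Gzmk* went from 0.02 to -0.65 on the log2 scale.

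Regulatory T cells carry CTLA-4, TIGIT and PD-1 as well, and their 4 markers (*Foxp3*, *Il2ra*, *Ikzf2* and *Ikzf4*) summed to 27.6 to 48.6 CPM in vehicle and 26.3 to 35.1 CPM in HPβCD infarcts. Over the 8 libraries *Ikzf2* averaged 26.2 CPM and *Foxp3* 0.659 CPM, so the sum mainly follows *Ikzf2*, and which cells expressed it was not tested. All 4 markers had log2 fold changes below 0 (median -0.74), and 0 of 4 passed the test. As a percentage of CD3 counts *Foxp3* was at 0.873% to 2.32% in vehicle and 0.771% to 1.61% in HPβCD animals. *Tnfrsf18*, which encodes the costimulatory receptor GITR and is abundant on regulatory T cells, was singled out after its values were seen, as was *Foxp3*. It was at 2.41% to 3.60% in vehicle and 0.806% to 1.93% in HPβCD animals, without overlap, where 3.31% of all tested genes were likewise lower, but the groups overlapped with *Cd3e* left out of the denominator. The other 6 costimulatory receptors overlapped on this scale, as did *Il2ra*, *Ikzf2* and *Ikzf4*. The part of regulatory T cells in the receptor values was not tested.

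**Figure D3:**
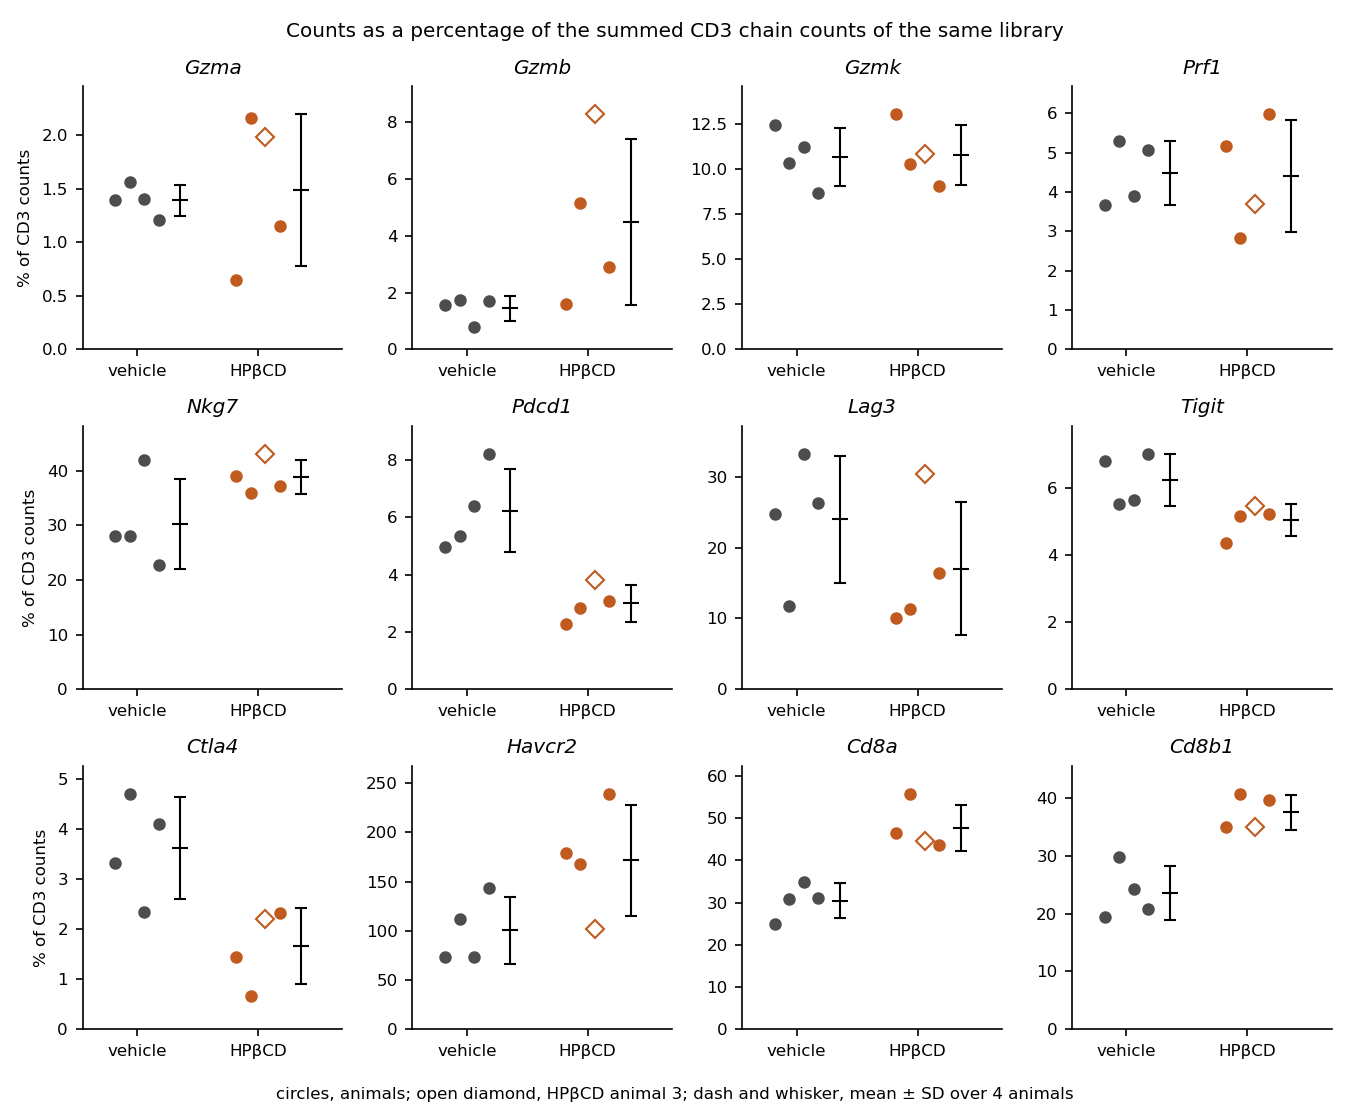
Counts of each gene, and of *Cd8a* and *Cd8b1*, as a percentage of the summed counts of the 4 CD3 chains in the same library, on linear axes from 0 with symbols as in the plot of CPM by animal. Each HPβCD animal lies below each vehicle animal for *Pdcd1*, *Tigit* and *Ctla4*, of which only *Pdcd1* stays apart with *Cd3e* left out of the denominator, and above them for both CD8 chains, and *Gzmk* centers on 10.7% and 10.8%.

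To compare genes with each other, CPM was divided by the merged exon length in kilobases. In vehicle infarcts *Havcr2* (17.9 ± 5.58 CPM per kilobase) and *Nkg7* (16.0 ± 3.77) led, with overlapping values. *Lag3* (5.51 ± 2.04), *Gzmk* (3.86 ± 1.36) and *Tigit* (3.38 ± 1.03) formed the middle, each overlapping with the next. *Pdcd1* (1.55 ± 0.281) lay below *Tigit* in every animal and above *Prf1* (0.847 ± 0.184) in every animal. *Ctla4* (0.774 ± 0.271), *Gzma* (0.687 ± 0.179) and *Gzmb* (0.511 ± 0.214; SD, n = 4 for each gene) ended the order, and neighbors among *Prf1* and these 3 did not differ beyond their spread. In HPβCD infarcts the first 5 places were the same. *Gzmb* then ranked sixth at 1.67 ± 1.85 CPM per kilobase, through HPβCD animal 3 (4.37), and *Ctla4* ranked last at 0.332 ± 0.266.

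Around the 10 genes, 9 lists with 89 genes were examined, of which 76 were tested and 2 passed the edgeR test, both higher, close to the 1.95% of all tested genes that passed. One was *Igf2r*, the mannose 6-phosphate receptor, which also takes up granzyme B. It rose by 0.98 on the log2 scale, from 150 ± 29.7 to 296 ± 42.0 CPM (SD, n = 4 each; edgeR adjusted p = 0.0483). The other was *Cd80*, the ligand of CD28 and CTLA-4 on antigen presenting cells, which rose by 1.44, from 13.2 ± 5.61 to 35.9 ± 5.46 CPM (edgeR adjusted p = 0.0499). Without vehicle animal 1 or 4, or HPβCD animal 1, 2 or 3, 0 pathway genes passed.

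Among effector genes outside the 10, *Gzmc*, *Gzmd*, *Gzme*, *Gzmf*, *Gzmg*, *Gzmm*, *Gzmn* and *Ifng* did not pass the filter on low counts, and 4 genes of that list had 0 counts in every library. Of the 6 that were tested, 2 had log2 fold changes above 0 (median -0.12). The machinery that docks and fuses lytic granules, which many other cells also use, had 7 of 7 tested genes above 0 (median 0.50) and 0 called. *Lyst*, *Ap3b1* and *Vamp8*, which act in granule biogenesis and fusion, had 0.29, 0.50 and 0.46, with edgeR adjusted p-values of 0.251, 0.0698 and 0.115. *Rab27a*, singled out after its values were seen, was at 0.87 (edgeR adjusted p = 0.0578). Its values were 15.9 to 30.3 CPM in vehicle and 41.1 to 46.4 CPM in HPβCD animals. DESeq2, which called 17.0% of genes in either direction, called *Rab27a* and *Ap3b1* higher (adjusted p = 0.0029 and 0.0142). The 4 genes listed as granzyme inhibitors were all above 0 (median 0.57). That list also holds *Igf2r*, which takes up granzyme B and is not an inhibitor.

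Receptors of natural killer cells were below 0 in 9 of 10 tested genes (median -0.37), with 0 called. *Klrb1c*, *Cd244a* and *Klrd1*, the most abundant, had -0.23, 0.02 and -0.09. The 3 natural killer markers summed to 3.15 to 17.0 CPM in vehicle and 6.82 to 12.6 CPM in HPβCD infarcts. Costimulatory receptors were below 0 in 6 of 7 (median -0.38, 0 called). *Cd28*, the exception, was at 54.5 ± 14.9 and 79.6 ± 14.2 CPM (SD, n = 4 each; edgeR adjusted p = 0.144).

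Ligands of the receptors were above 0 in 7 of 11 tested genes (median 0.22). Other inhibitory receptors were above 0 in 4 of 7 (median 0.00, 0 called), with *Vsir*, *Lair1* and *Cd200r1* at 0.26, 0.00 and 0.34. In the same list *Btla*, a receptor of B and T cells that was singled out after its values were seen, was at -2.04 (edgeR adjusted p = 0.0543). Its values were 17.2 to 60.5 CPM in vehicle and 5.02 to 14.8 CPM in HPβCD animals. DESeq2, which called 17.0% of genes in either direction, called it lower (adjusted p = 2.6e-04). So did limma-voom, which called 11.1% of genes lower (adjusted p = 0.0049). The paper also names *Btla* among genes lower after HPβCD. *Pilra*, singled out in the same way, was at -0.94 (edgeR adjusted p = 0.149). Transcription factors of effector and exhausted T cells were below 0 in 11 of 14 (median -0.14, 0 called), with *Zeb2*, *Id2* and *Tcf7* at 0.04, -0.02 and -0.23. Genes of tissue residency were split, 5 above and 5 below 0 (median 0.00, 0 called), with *Cxcl16* at 0.09 and *Itga1* at 0.18. At an unadjusted edgeR p under 0.05 there were 2 of 10 lower and 0 higher, against 27.8% of all tested genes in either direction. *Cd69*, singled out after its values were seen, was at -1.40 (edgeR adjusted p = 0.0746). The medians stand beside -0.05 over all tested genes.

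Among lymphocyte markers, calls were made for B lymphocyte and plasma cell genes. All 7 B lymphocyte markers were below 0 (median -1.95), and 3 of them, *Cd79a*, *Cd79b* and *Fcer2a*, were called lower. Plasma cell markers were below 0 in 5 of 6 (median -1.50), with *Jchain* called lower. T lymphocyte markers were below 0 in 9 of 12 (median -0.23) and 0 were called. Mast cells, which can hold granzymes, had 3 of 6 markers above the filter, and all 6 summed to 3.21 to 7.98 CPM in vehicle and 3.60 to 5.39 CPM in HPβCD infarcts. The 5 neutrophil markers summed to 53.6 to 74.6 CPM and 55.0 to 115 CPM, and the 6 dendritic cell markers to 50.5 to 63.8 CPM and 35.3 to 55.3 CPM. Of the latter 5 were above 0 (median of the 6, 0.20) and *Siglech*, which microglia also express, was called lower (-2.40). Fibroblast markers were above 0 in 6 of 6 (median 0.94), and *Col1a1* and *Col1a2* were called higher.

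**Figure D4:**
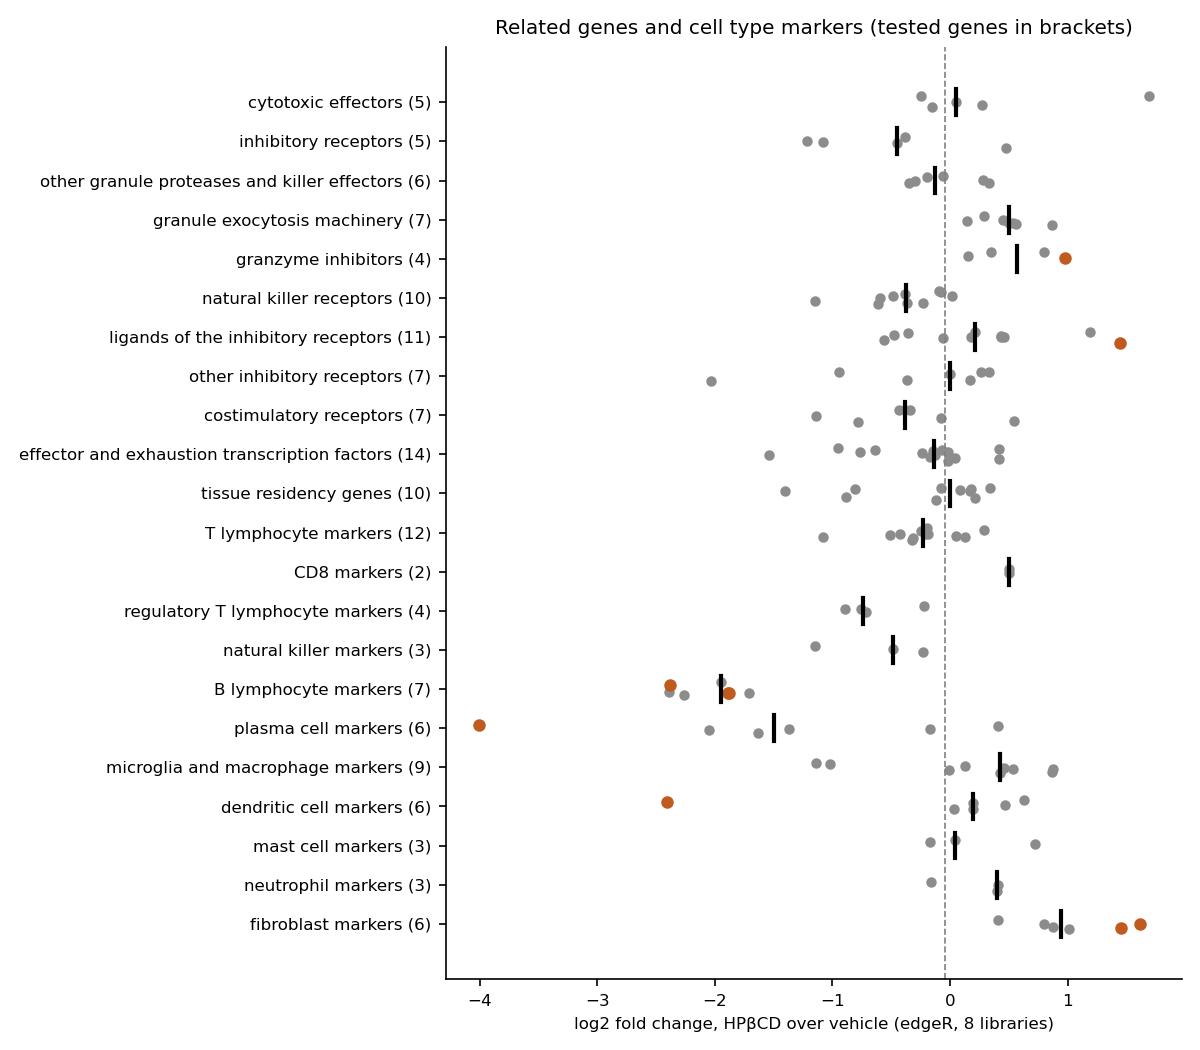
Log2 fold change of each tested gene, HPβCD over vehicle, by gene list, with orange points for genes called by edgeR, black bars for list medians and a dashed line for the median of all tested genes at -0.05. Inhibitory receptors center on -0.45 and granule exocytosis genes on 0.50, with 0 calls in either, and the calls among lymphocyte lists are B lymphocyte and plasma cell markers; points are shifted vertically at random for display, and neuron and oligodendrocyte markers are left out for scale.

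Among 13972 other genes averaging 1 CPM or more, those whose log2 CPM followed the mean standardized profile of the 5 effectors most closely over the 8 libraries were *Cd3e* (Pearson r = 0.997), *Tap1* (0.966) and *Il12rb1* (0.965). *Cd3e* is a chain of the T cell receptor complex, *Tap1* transports peptides for MHC class I and *Il12rb1* is a subunit of the interleukin 12 receptor. For the receptors they were *Fcrls* (0.985), *Fgd2* (0.965) and *Cst7* (0.963), of which *Fcrls* is known as a microglia gene and *Cst7* encodes an inhibitor of the cathepsins that process granzymes. Without HPβCD animal 3 the coefficients for these 6 genes were between 0.939 and 0.986. They were selected as the highest of many and are a description.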

How the data were processed

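Total RNA of satisfactory integrity from 8 infarcts was made into stranded polyadenylated libraries and sequenced as paired ends. The authors trimmed reads with Trimmomatic 0.32, aligned them to GRCm38 with STAR 2.5.2b and counted them per gene with HTSeq. The strand setting and annotation release are not given in the sources used here. The deposited values are raw counts per gene, without normalization, one table per animal. The 5 lines of reads assigned to no gene (26.6% to 36.6% of each table) were left out. Symbols matched 45143 of 46078 identifiers, and coordinates are from GENCODE M21 on GRCm38. No exon base of the 10 genes was shared with another gene.

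HPβCD was compared with vehicle by the robust quasi-likelihood F test of edgeR 4.0.16 (R 4.3.3) with TMM factors and filterByExpr, with no covariate, on 14736 genes with Benjamini-Hochberg adjustment over all of them. A gene was called at an adjusted p under 0.05, and intervals are 95%. CPM are scaled by TMM factors, with a prior count of 2 on the log2 scale. DESeq2 1.42.0 and limma-voom (limma 3.58.1) were alternatives, beside other scaling and filters, the animal number as a block and leaving out animals. The genes and lists were chosen with earlier results of these data known. All 10 genes are named. From each other list up to 3 called genes are named, or otherwise up to 3 of the highest mean CPM, and 1 result is not reported here. For each set of 5, the 3 genes of most similar pattern were added. The labels name each library as a numbered replicate of one group and give no batch, and no 2 libraries agreed within sampling noise, and the methods of the study present values for individual mice, so the replicates are called animals here. Tested on simulated data for this comparison (200 of 14736 genes changed), edgeR recovered 81.0% of genes changed 4-fold and 0 of those changed 2-fold.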

Additional observations from a re-analysis of the deposited data

Results flagged for a closer look

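Dixon's test was used to look for animals whose value lay far from those of their group. It marked 4 of 66 sets of 4 values, and chance marks about 1 in 20, or 3.3 of 66. That rate assumes normally distributed values. The marker sums below were taken in CPM without a log, so the rate may not hold for them. In *Lag3*, HPβCD animal 3 had a log2 CPM of 4.53 against 1.87 to 2.27 in the other HPβCD animals. HPβCD animal 3 was also high in summed neuron markers, at 71.7 CPM against 2.57 to 12.5 CPM. In vehicle animal 3 the neuron markers summed to 5682 CPM against 9.30 to 900 CPM in the other vehicle animals. The microglia and macrophage markers of vehicle animal 3 summed to 1282 CPM against 1978 to 2106 CPM.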

How the results depend on the processing

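The precision of these values is limited by counts of 4 to 28 per library for *Gzma* and 4 to 81 for *Ctla4*, and by 4 animals per group. The count of calls over all genes, 287, was 2899 by DESeq2, 3253 by limma-voom with sample quality weights, 11 with library totals only and 9 with the replicate block. It ranged from 0 to 629 when single animals were left out, with 0 calls without vehicle animals 1 or 4 or HPβCD animals 2 or 3 and 4 without HPβCD animal 1. The 10 genes had 0 calls in 15 of 16 alternatives and 2 by limma-voom, *Pdcd1* (-1.54) and *Ctla4* (-2.07). Pathway genes called, 2 of 76, were 11 by DESeq2, 24 by limma-voom, 0 with library totals only, 4 with a minimum of 1 CPM in 4 libraries and 0 with the replicate block, and 0 to 9 without single animals. The groups did not overlap in 0 to 4 of the 10 genes without single animals, 4 of them without HPβCD animal 3, and in 1 without vehicle animals 1 and 3. The ratio to CD3 counts separated the groups in 3 genes and in 1 with all T lymphocyte markers or with the CD3 chains but *Cd3e* as the denominator. Of 158 alternatives for single log2 fold changes, 11 reversed. *Gzma* went from 0.05 to -0.26 by limma-voom, -0.052 with library totals only, -0.16 with the replicate block and between -0.62 and 0.35 without single animals. *Gzmk* (-0.15) lay between -0.53 and 0.12 without single animals, at 0.06 without HPβCD animal 4, and 0.11 without vehicle animals 1 and 3. *Nkg7* (0.27) lay between -0.21, without HPβCD animal 3, and 0.45, and *Lag3* was at 0.050 without vehicle animals 1 and 3. The cause was not tested. Same-numbered animals correlated at -0.26 to 0.33 in their deviations from the group means, so the numbers were not taken to pair them, and 2 of 4 vehicle libraries correlated best with their own number. DESeq2 and the fit with every counted gene moved the median of all genes by -0.11, with more genes tested.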
